A study of Homo sapiens with 18 samples.

Results

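Laminins are the large cross-shaped glycoproteins of basement membranes, and 9 genes that encode their chains are described here across NCI-H460, an established line of human large-cell lung cancer. The genes are LAMA1, LAMA2, LAMA3, LAMA4 and LAMA5 (alpha chains), LAMB1, LAMB2 and LAMB3 (beta chains) and LAMC1 (a gamma chain). They were chosen by name, and all 9 were found among the 58051 genes of both expression tables. Of the other laminin chain genes, LAMB4 and LAMC3 are given only for comparison. The 18 RNA-seq libraries came from 3 cell populations, which were wild-type parental NCI-H460 cells and the populations resistant #1 and resistant #2 (here resistant 1 and resistant 2), both labelled as resistant to decitabine and ATRA (all-trans retinoic acid). The culture medium of all groups was RPMI-1640 plus fetal bovine serum at 10%. At 24 h after seeding, cells received DMSO alone (0.7% v/v), or decitabine (50 µM according to the labels) and ATRA (2 µM). Cells were harvested at 72 h, after 48 h of exposure, with 3 biological replicates in each of the 6 groups. Decitabine is a cytidine analogue that lowers DNA methylation, and ATRA, a vitamin A metabolite, activates retinoic acid receptors. The labels do not say whether a resistant population is a clone, and each is a single population, so the replicates measure the spread within these cells and not between independently selected lines.

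Each laminin is a trimer of 1 alpha, 1 beta and 1 gamma chain, joined in a coiled coil inside the cell before it is secreted. The alpha chain carries the globular domains that bind integrins and dystroglycan, and the short arms polymerise into the sheet on which collagen IV, nidogen and perlecan assemble. In epithelia, LAMA5 and LAMA1 form the main basement membrane trimers with LAMB1 or LAMB2 and LAMC1, and LAMA3 and LAMB3 belong to the anchoring laminin of hemidesmosomes. LAMA4 is typical of vessel walls, muscle and mesenchymal cells, and LAMA2 of muscle and peripheral nerve.

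Since decitabine acts on CpG sites, stretches before the start sites of LAMC1 and LAMA4 are shown first. RefSeq windows of 250 bases before the start (GRCh38.p14) were matched for 9 laminin genes, with 11 windows in all: LAMA2, LAMA3, LAMA4, LAMA5, LAMB1, LAMB2, LAMB3, LAMB4 and LAMC1. The LAMC1 window held 32 CpG dinucleotides, more than 90.5% of the 35116 windows of the table, whose median was 11. The LAMA5 window also held 32, LAMB1 28, LAMB2 12, LAMA2 and LAMA3 9 each, the 3 LAMB3 windows 3, 8 and 10 and LAMB4 1. The LAMA4 window held 5, more than 34.3% of all windows. LAMC1, the most abundant chain in every group, and LAMA4, the chain that differed most between populations, are shown because they lie on either side of the median. The LAMC1 window is chr1:183023170-183023419 on the plus strand. The LAMA4 stretch, chr6:112254723-112254785 on the minus strand, is the longest run of its window outside annotated exons and holds 2 of its 5 CpG. The RefSeq start used for LAMA4 lies 372 bases inside its GENCODE gene span, which also contains a start farther upstream. The whole LAMA4 window, with its count of 5, therefore lies within the gene, and CpG before that upstream start were not counted. CpG dinucleotides are in capitals.
LAMC1: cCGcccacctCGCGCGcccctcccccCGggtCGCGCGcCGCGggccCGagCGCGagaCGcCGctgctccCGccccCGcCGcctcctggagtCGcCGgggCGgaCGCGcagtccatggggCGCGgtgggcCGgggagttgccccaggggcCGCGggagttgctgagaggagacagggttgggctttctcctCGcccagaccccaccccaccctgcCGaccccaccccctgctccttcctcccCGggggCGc
LAMA4: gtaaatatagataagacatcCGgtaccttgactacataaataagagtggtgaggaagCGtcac

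LAMA3, the alpha chain with the largest response of parental cells to the drugs among those well expressed in them, was searched for the AP-1 motif TGANTCA (both strands). Its window held 2 matches, beginning 125 and 69 bases before the RefSeq start, while 6.57% of all windows held at least 1 and 0.402% held 2 or more. That start lies 183577 bases inside the gene span of GENCODE 29, which also contains a start farther upstream. The matches are shown in capitals with their flanks, 29 bases each, from chr18:23872884-23872912 and chr18:23872940-23872968 on the plus strand.
LAMA3 site 1: ctggcacaggcTGACTCAtgtgtgaagtt
LAMA3 site 2: ccttcctcaccTGAGTCAggcaggcccgg
Of the other laminin windows, 1 of LAMB3 held a TGANTCA match. The nuclear receptor motif AGGTCA and the TEAD motif CATTCC were each found once, both in the LAMA2 window, and are held by 12.1% and 11.9% of all windows. A match describes letters only, and methylation and binding were not measured.

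The DMSO libraries held 116.9 to 140.9 M reads each. The treated libraries held 116.2 to 180.6 M, summed over restored genes. The treated table had lost its decimal points, and a gene was used there only where a single placement reached a posterior probability of 99% (20564 of 25179 expressed genes). All 9 laminins passed, with LAMA4 (99.52%) and LAMA3 (99.87%) lowest, so the treated values of LAMA4 and LAMA3 carry the least certainty. The epithelial keratins KRT8, KRT18 and KRT19 were abundant in all groups (31026 to 188443 normalized counts on average with DMSO), as the label of epithelial cells implies. With DMSO, however, CDH1 stood at 0.915 to 1.38, and EPCAM at 93.5 in parental cells and 3.90 and 3.88 in resistant 1 and resistant 2. With the drugs CDH1 reached 1403, 61.2 and 42.2 and EPCAM 1028, 94.8 and 58.8 in parental, resistant 1 and resistant 2 cells. KRT7 went from 796, 701 and 1032 to 7196, 5480 and 2185, and KRT8 and KRT18 were also higher on average in each population. KRT19 went the other way, from 84570, 188443 and 31026 with DMSO to 45725, 150240 and 18606 with the drugs. The 8 fibroblast markers summed to 8085 to 10049 normalized counts in parental, 490 to 551 in resistant 1 and 5948 to 8198 in resistant 2 libraries with DMSO. The 6 endothelial markers summed to 66.1 to 90.9 in parental, 327 to 429 in resistant 1 and 142 to 267 in resistant 2 libraries with DMSO. Of these, TEK stood at 1.04, 166 and 130 normalized counts on average, KDR at 68.1, 181 and 15.5, VWF at 8.76, 27.0 and 18.8 and PECAM1 at 0.985, 2.22 and 22.7. CLDN5 was at 0 and CDH5 at 0, 0.625 and 4.55, but with the drugs CDH5 reached 497 in parental, 55.1 in resistant 1 and 229.9 in resistant 2 cells. The part of these other cell type markers in the laminin results was not tested.

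**Figure D1:**
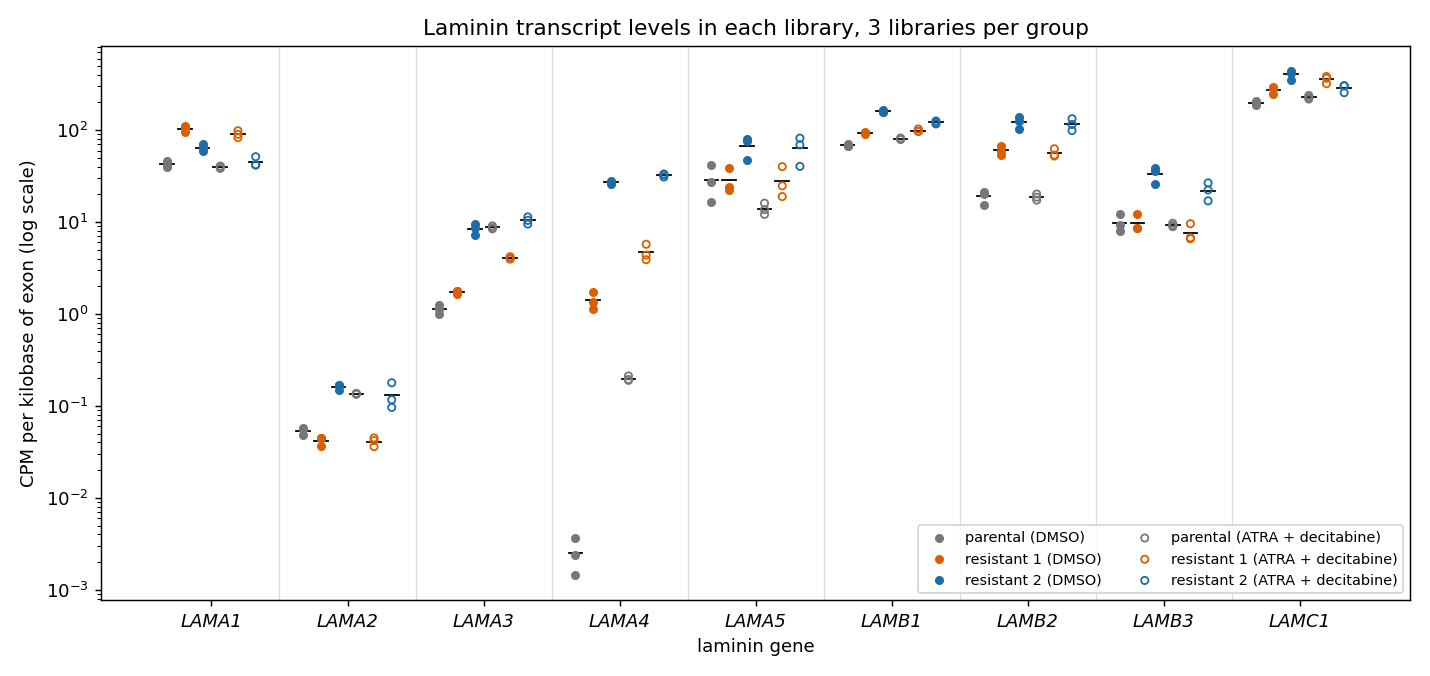
Level of each laminin gene in every library, as CPM (read counts scaled to library size, with TMM factors) per kilobase of annotated exon on a log axis, with filled points for DMSO, open points for ATRA with decitabine and a bar at the mean of 3 libraries. LAMC1 is the highest chain in all 6 groups (196 to 404), and LAMA4 runs from 0.00248 in parental to 27.0 in resistant 2 cells with DMSO.

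Genes were compared on a per-length scale, CPM per kilobase of the exon union over all annotated isoforms. That union exceeds the longest transcript unevenly (15872 against 10374 bases for LAMA1, 11575 against 6547 for LAMA4, 8406 against 7889 for LAMC1). Orders, shares and sums between genes therefore depend on this choice of length. On this scale untreated parental cells made mostly LAMC1 (196 ± 12.2, SD, n = 3), LAMB1 (68.2 ± 2.73) and LAMA1 (42.7 ± 2.93). LAMA5 (28.7 ± 13.0) followed, and its range over libraries overlapped those of LAMA1 and LAMB2 (19.0 ± 3.11), so the order of these chains did not exceed the spread. LAMB3 came next at 9.77 ± 2.13 and LAMA3 at 1.13 ± 0.123. LAMA2 (0.0539 ± 0.00481) and LAMA4 (0.00248 ± 0.0011) were close to absent. In resistant 1 the order was LAMC1 (275 ± 24.1), LAMA1 (104 ± 7.09), LAMB1 (92.7 ± 2.20) and LAMB2 (60.4 ± 6.96), with LAMA3 and LAMA4 overlapping each other at 1.73 ± 0.0733 and 1.41 ± 0.312. In resistant 2 it was LAMC1 (404 ± 45.4), LAMB1 (161 ± 5.81) and LAMB2 (122 ± 18.7), then LAMA5 (67.6 ± 17.7) and LAMA1 (64.6 ± 6.15), which overlapped, then LAMB3 (33.4 ± 6.68) and LAMA4 (27.0 ± 1.10), which also overlapped.

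Without drugs, the resistant populations had more laminin transcript than parental cells, and resistant 2 the most. Against parental cells, 6 of the 9 laminins were higher in resistant 1 and none was lower, while 55.9% of all 21643 genes tested were called (29.3% higher and 26.6% lower). In resistant 2 all 9 were higher, while 61.9% of all genes were called (32.1% higher and 29.8% lower). The median difference of the laminins on the log2(normalized count + 1) scale was 0.48 in resistant 1 and 1.60 in resistant 2, beside medians of 0.01 and 0.02 over all genes. Calls are adjusted p-values under 0.05 from limma with Benjamini-Hochberg adjustment over all genes, and both comparisons share the 3 parental libraries. In such bulk RNA, fewer cells making a transcript and less transcript per cell cannot be told apart.

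LAMA4, the alpha chain of mesenchymal and vascular laminins (ENSG00000112769, chromosome 6, 112108760 to 112254939, GRCh38), differed most. With DMSO it had 2, 5 and 3 reads in the parental libraries, 1744, 2013 and 2419 in resistant 1, and 37267, 33273 and 34577 in resistant 2. The 3 populations did not overlap, and every resistant 2 library stood far above every resistant 1 library. As normalized counts, the ratio to parental was 568 in resistant 1 (95% counting interval 309 to 1185, from 10 parental reads in all) and 11124 in resistant 2 (6048 to 23198). The differences were 8.80 ± 0.23 (SE) and 13.12 ± 0.23 on the log2(normalized count + 1) scale (limma, adjusted p = 2.8e-10 and 1.43e-11). Resistant 1 stood 19.6-fold below resistant 2 (adjusted p = 6.03e-08). With DMSO the endothelial sums given above were higher in both resistant populations, although KDR was lower in resistant 2 and CLDN5 stayed at 0. The fibroblast sums were lower in resistant 1 and overlapped the parental ones in resistant 2, but their members went different ways. In parental, resistant 1 and resistant 2 cells COL3A1 averaged 6475, 28.2 and 456, and LUM 1409, 58.5 and 41.1. COL1A1 (820, 26.9 and 2195), PDGFRB (621, 286 and 1167) and POSTN (4.07, 7.50 and 3019) were highest in resistant 2. DCN was highest in resistant 1 (21.8, 117 and 31.9), and COL1A2 and THY1 stayed at 4.61 or below. The 4 smooth muscle markers summed to 1647 to 1832 in parental, 4162 to 4586 in resistant 1 and 3830 to 4692 in resistant 2. ACTA2 made up most of these sums, while DES went the other way (54.8, 21.5 and 0.724 on average). The part of these markers in the LAMA4 result was not tested.

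LAMA3, the alpha chain of the hemidesmosome laminin, had 2152, 1916 and 1738 normalized counts in parental, 3041, 3007 and 2799 in resistant 1, and 16686, 15200.1 and 12542 in resistant 2 libraries. It was thus modestly higher in resistant 1 and several-fold higher in resistant 2, with no overlap. The mean ratios were 1.52 and 7.65 (limma, adjusted p = 0.00123 and 6.07e-09). LAMA1, the alpha chain of the embryonic-type laminin, went the other way between the resistant populations. It had 74991, 76220.2 and 86163 normalized counts in parental, 201378, 195484 and 175852 in resistant 1 and 120573, 134461 and 110529 in resistant 2 libraries. Resistant 1 was highest, at 2.41 times the parental mean, and resistant 2 stood between, at 1.54 times (adjusted p = 1.09e-06 and 0.000206).

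LAMA5, the main alpha chain of adult epithelia, varied widely between libraries of a group. Its normalized counts were 46037, 68824 and 27685 in parental, 36907, 39807 and 64104 in resistant 1, and 135778, 80659.9 and 127982 in resistant 2 libraries. Parental and resistant 1 libraries overlapped and the difference was not called (0.03 on the log2 scale, 95% interval -0.67 to 0.74). Resistant 2 lay above both, at 2.42 times the parental mean (limma, adjusted p = 0.00361). LAMA2, the alpha chain of muscle laminin, was scarce, at 60, 71 and 63 reads in parental, 50, 59 and 55 in resistant 1 and 202, 174 and 188 in resistant 2 libraries. It was 3.06 times the parental mean in resistant 2 (adjusted p = 1.91e-05), and the value of -0.38 ± 0.19 on the log2 scale in resistant 1 was not called (adjusted p = 0.108) although the groups did not overlap. Under quantile normalization it was called lower (-0.66, adjusted p = 0.0109), which made 7 laminins called in resistant 1.

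Among the beta chains, LAMB2 (of mature and neuromuscular basement membranes) differed most. Its normalized counts were 16232, 16778 and 12588 in parental, 47025, 43277 and 53754 in resistant 1, and 114134, 83727 and 101355 in resistant 2 libraries. These groups were separate and rose in that order, at 3.16 and 6.56 times the parental mean (limma, adjusted p = 2.28e-06 and 3.52e-08). LAMB1, the widespread beta chain, had 63559, 62102 and 68654 in parental, 89445, 87489 and 85306 in resistant 1, and 153695, 151763 and 161131 in resistant 2 libraries. The ratios were 1.35 and 2.40 (adjusted p = 0.000438 and 8.28e-08), and the spread within each group was small. LAMB3, the beta chain of the hemidesmosome laminin, had 5118, 6469.7 and 4392 in parental, 4683, 4654 and 6574 in resistant 1 and 21413, 14425 and 20028 in resistant 2 libraries. Parental and resistant 1 overlapped (difference -0.01, 95% interval -0.43 to 0.41), and resistant 2 was 3.50 times the parental mean (adjusted p = 9.05e-06).

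LAMC1, the gamma chain shared by most trimers (ENSG00000135862, chromosome 1, 183023460 to 183145592), had 188836, 178849 and 208337 normalized counts in parental, 282664, 280220.2 and 239683 in resistant 1, and 438616, 421999 and 350247 in resistant 2 libraries. The groups did not overlap, and the ratios to parental were 1.39 and 2.10 (limma, adjusted p = 0.00336 and 7.4e-06). Between the resistant populations all 9 laminins were called, with LAMA1 higher in resistant 1 and the other 8 higher in resistant 2, beside 53.4% of all genes called (27.4% higher in resistant 1 and 26.0% lower). That comparison shares its libraries with those against parental cells.

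**Figure D2:**
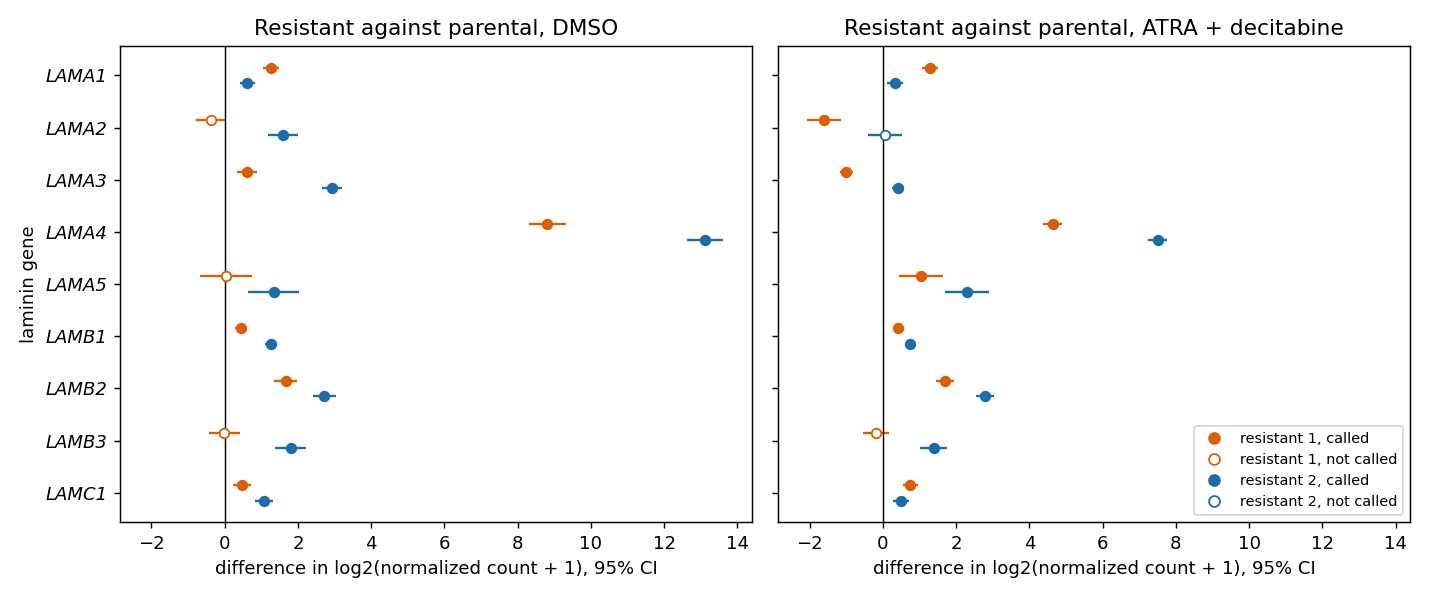
Difference of each resistant population from parental cells for the 9 laminins, in log2(normalized count + 1) with 95% confidence intervals, under DMSO (left) and ATRA with decitabine (right); filled points passed an adjusted p of 0.05 (limma). LAMA4 lies farthest to the right in both panels and LAMA3 of resistant 1 changes side between them, while with the drugs the values of LAMA1 and LAMC1 in resistant 2 fall below 0 (-0.14 and -0.16) under quantile normalization.

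The mix of chains differed between populations as well as their amount. LAMA1 made up 60.0 ± 11.7% (SD, n = 3) of the alpha-chain transcripts per length in untreated parental cells, 76.8 ± 6.42% in resistant 1 and 38.8 ± 6.63% in resistant 2. Its shares in parental (49.2 to 72.5%) and resistant 1 libraries (69.4 to 81.3%) overlapped, and those in resistant 2 (34.8 to 46.5%) lay below both. LAMA5 took 38.3 ± 11.8%, 20.9 ± 6.29% and 39.9 ± 7.76%, so its share overlapped between parental and the resistant cells. LAMA4 took 0.00336 ± 0.00112% in parental, 1.04 ± 0.214% in resistant 1 and 16.1 ± 0.738% in resistant 2. In resistant 2 the alpha chains were thus spread over LAMA1, LAMA5 and LAMA4, where parental cells and resistant 1 had mainly the first pair. Of the beta chains, LAMB2 took 19.6 ± 2.78% in parental, 37.0 ± 2.46% in resistant 1 and 38.5 ± 2.79% in resistant 2, with no overlap between parental and either resistant population. LAMC1 made up 97.5 to 99.3% of the gamma-chain transcripts on average. Summed per length, the alpha chains stood at 72.6 ± 11.6, 135 ± 2.83 and 168 ± 14.1 CPM per kilobase in parental, resistant 1 and resistant 2, the beta chains at 97.0 ± 3.05, 163 ± 8.03 and 317 ± 27.9, and the gamma chains at 201 ± 11.5, 278 ± 23.9 and 407 ± 45.8. No test was made on shares or sums, which depend on the exon length taken.

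**Figure D3:**
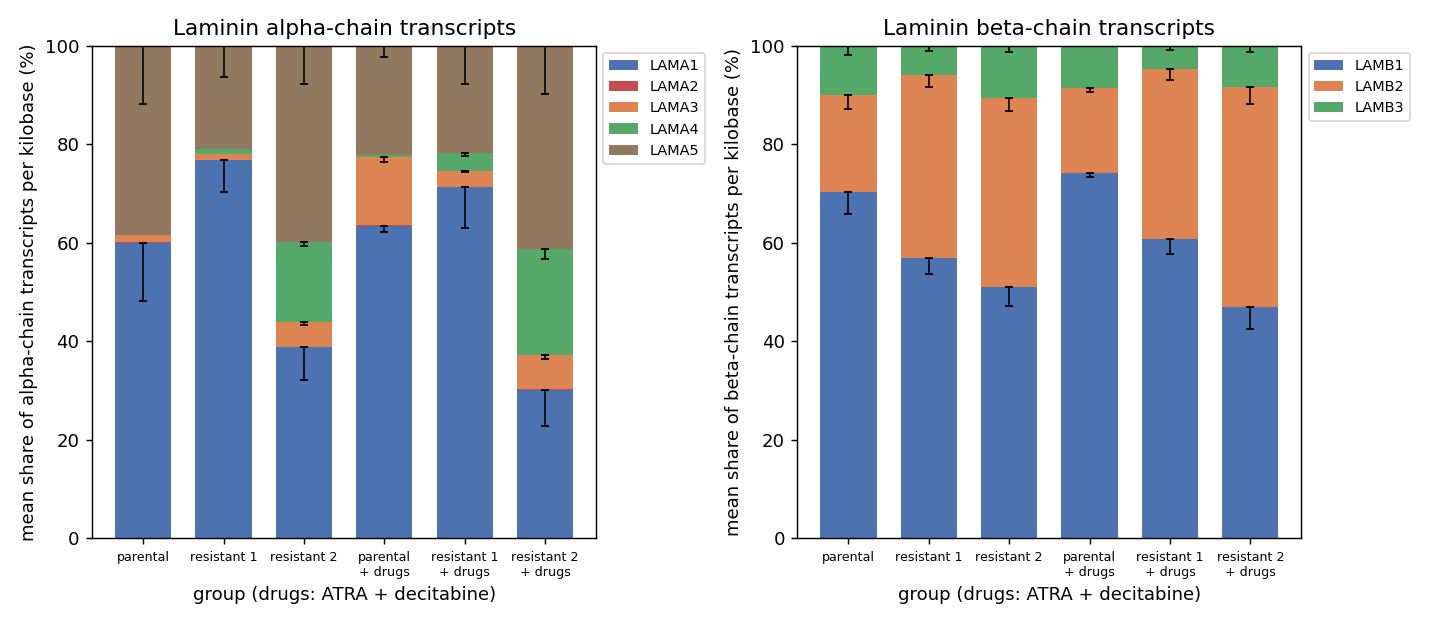
Mean share of each alpha chain (left) and beta chain (right) among the transcripts of its class per kilobase, in the 6 groups; black bars reach 1 SD (n = 3) down from the top of each segment over 3%. LAMA4 is visible only in the resistant cells, at 16.1% in untreated and 21.4% in treated resistant 2, and LAMA3 widens from 1.58 to 14.0% in parental cells given the drugs (LAMA2 is too small to be seen, and LAMB4 is left out).

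With ATRA and decitabine present, the resistant populations again differed from parental cells in most laminins. Against the treated parental libraries, 6 of the 9 were higher in resistant 1 and 2 were lower, beside 67.1% of 20564 genes called (34.6% higher and 32.6% lower). In resistant 2, 8 were higher and LAMA2 was not called, beside 72.6% of genes called (37.7% higher and 34.9% lower). Under quantile normalization only 5 of these 8 were called, and LAMA1 and LAMC1 took the opposite sign, at -0.14 and -0.16 on the log2 scale. Between the treated resistant populations all 9 were called, with LAMA1 and LAMC1 higher in resistant 1 and 7 higher in resistant 2, beside 58.5% of genes called (29.7% higher in resistant 1 and 28.8% lower). In treated resistant 1 against parental cells the calls of LAMB1 and LAMC1 were lost under that normalization (0.08 and 0.07). The LAMC1 call between the resistant populations (0.26 ± 0.10, limma, adjusted p = 0.0354) was lost without resistant 1 replicate 1 or 2 (0.20 and 0.24), or resistant 2 replicate 3 (0.17). It was also lost with no filter on low values (adjusted p = 0.0718), with only these groups in the fit (0.105), with quantile normalization (0.0739) and with an adjustment for GC content (0.0665).

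In the treated cells LAMA4 had 338, 298 and 308 normalized counts in parental, 6709, 7401 and 9726 in resistant 1, and 57530.1, 55202 and 58221 in resistant 2 libraries. The populations kept the same order without overlap, at 25.3 and 181 times the parental mean (limma, adjusted p = 1.37e-10 and 1.82e-12). LAMA3 changed its order. It had 17046, 18124 and 17453 in parental, 8635, 8607 and 9013 in resistant 1, and 25552, 23611 and 21061 in resistant 2 libraries. Treated resistant 1 was therefore below treated parental cells (95% interval -1.17 to -0.83 on the log2 scale, adjusted p = 5.4e-07), whereas without drugs it was above them (0.61 ± 0.12). LAMA2 was also lower in treated resistant 1 (62.5 ± 7.06 against 192 ± 3.18, adjusted p = 4.14e-05). In resistant 2 its values of 283, 187 and 150 spanned those of parental cells.

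LAMA5 was higher in both treated resistant populations, at 2.15 times the parental mean in resistant 1 and 5.09 times in resistant 2 (limma, adjusted p = 0.00497 and 1.17e-05). Its treated libraries held 31587, 23531 and 26702 normalized counts in parental, 40266, 51747 and 83953 in resistant 1, and 178766, 88929 and 149009 in resistant 2. These groups were separate, although the spread inside both resistant groups was wide. LAMB2 stood at 3.23 and 6.89 times the parental mean and LAMB1 at 1.32 and 1.68 times. LAMB3 was 2.64 times in resistant 2 and not called in resistant 1 (-0.20, 95% interval -0.56 to 0.16), though leaving out resistant 1 replicate 3 gave a call (-0.37). LAMC1 stood at 1.68 and 1.41 times, LAMC1 in resistant 2 with the sign change under quantile normalization given above.

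How the drugs moved each laminin was measured within populations, on the log2(CPM + 1) scale over all 18 libraries. In parental cells 4 laminins were higher with the drugs (LAMA2, LAMA3, LAMA4 and LAMB1) and LAMA5 was lower, beside 65.0% of 20665 genes called (35.9% higher and 29.2% lower). In resistant 1, LAMA3, LAMA4 and LAMC1 were higher and none was lower, beside 28.8% of genes called (14.9% higher and 13.8% lower). A block on the replicate number inside each population pairs its same-numbered DMSO and treated libraries, parental ones included. With it 5 were called in resistant 1, with LAMA1 (-0.20) and LAMB3 (-0.35) lower (limma, adjusted p = 0.0102 and 0.0114). In resistant 2, LAMA3 was higher and LAMA1, LAMB1, LAMB3 and LAMC1 were lower, beside 19.1% of genes called (9.89% higher and 9.17% lower). Under quantile normalization 3 were called in resistant 2, of which LAMA3 alone had been called before, beside LAMA4 (higher) and LAMA2 (lower). The median over the laminins was 0.22 in parental, -0.01 in resistant 1 and -0.20 in resistant 2, and over all genes 0.02, -0.00416 and -0.00362.

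LAMA3 responded in all 3 populations and most in parental cells. There it went from 18.3, 16.8 and 14.7 CPM with DMSO to 124, 133 and 127 with the drugs, in resistant 1 from 26.3, 25.8 and 24.3 to 58.0, 58.9 and 61.5, and in resistant 2 from 140, 128 and 106 to 167, 153 and 140. Treated parental cells thus reached the range of untreated resistant 2 cells, and the groups in resistant 2 overlapped. The responses were 2.88 ± 0.09, 1.19 ± 0.09 and 0.30 ± 0.09 (limma, adjusted p = 1.49e-13, 1.22e-07 and 0.0345). The call in resistant 2 was lost without DMSO replicate 2 or 3 (0.32 and 0.19) or treated replicate 1 or 2 (0.24 and 0.30). The response was smaller than the parental one by -1.69 ± 0.13 in resistant 1 and -2.58 ± 0.13 in resistant 2 (adjusted p = 4.07e-08 and 1.72e-10).

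LAMA4 rose from near 0 in parental cells but remained scarce there. It went from 0.0167, 0.0420 and 0.0275 CPM to 2.45, 2.19 and 2.24 in parental cells, from 13.1, 15.7 and 20.3 to 45.1, 50.6 and 66.4 in resistant 1, and from 321, 298 and 318 to 376, 358 and 386 in resistant 2. Treated parental cells remained below untreated resistant 1 in every library. The ratio of the means was 79.9 in parental (95% counting interval 43.3 to 167), 3.30 in resistant 1 and 1.20 in resistant 2, where the change was not called (limma, adjusted p = 0.207). That change was called under quantile normalization (0.40, adjusted p = 0.0465) and with the replicate block inside populations (0.26, adjusted p = 0.00144). Adding 1 to CPM values this low hides most of the parental change, since on that scale the responses of parental cells and resistant 1 were alike at 1.68 ± 0.13 and 1.67 ± 0.13. The difference between these responses was therefore -0.01 ± 0.19 and not called, but -2.50 with a pseudocount of 0.1, -4.55 with edgeR and -4.58 with DESeq2 on the reads, all called. Resistant 2 differed from parental by -1.42 ± 0.19 (adjusted p = 8.9e-06).

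**Figure D4:**
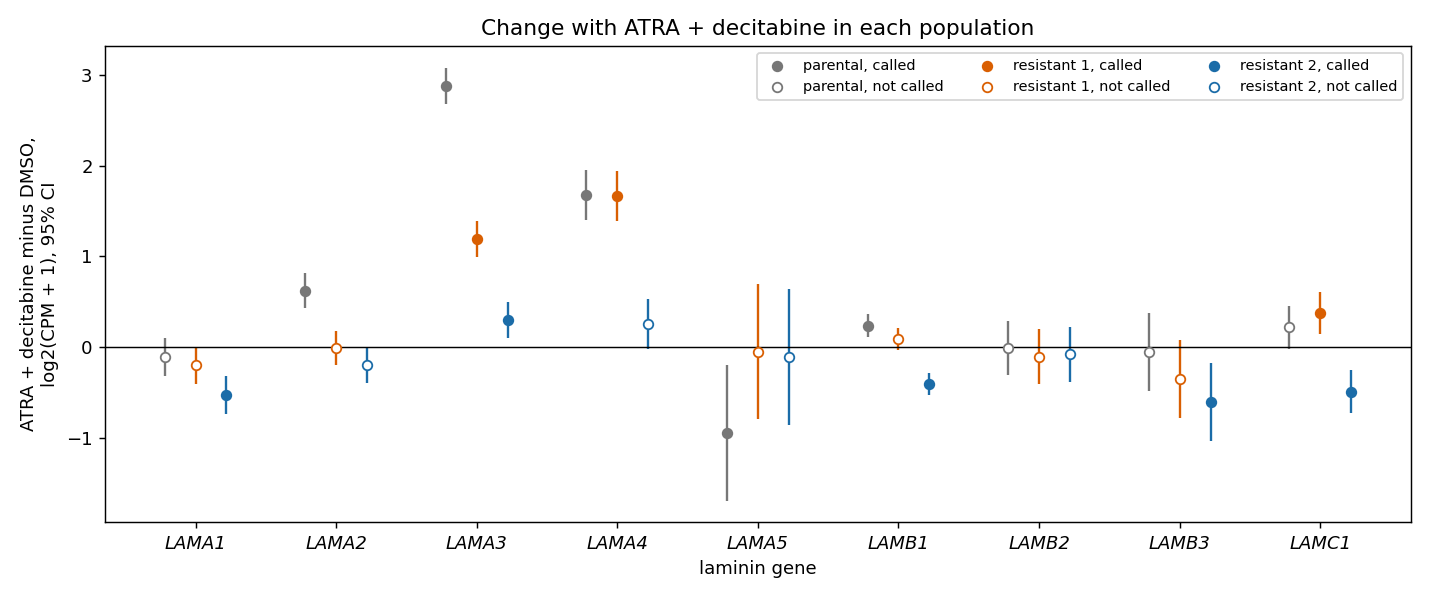
Change with ATRA and decitabine in each population for the 9 laminins, as the difference in log2(CPM + 1) with 95% confidence intervals; filled points passed an adjusted p of 0.05 (limma). LAMA3 falls from 2.88 in parental to 1.19 and 0.30 in the resistant cells, and LAMA4, read from near-zero parental counts, is understated in parental cells by the added 1; signs of open points near 0 for LAMA1, LAMA5, LAMB2 and LAMB3 turn under quantile normalization.

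LAMA2 rose from 0.502, 0.596 and 0.577 CPM to 1.42, 1.39 and 1.40 in parental cells, 2.51 times (limma, adjusted p = 1.16e-05). In resistant 1 it was 0.432 CPM on average with DMSO and 0.425 with the drugs, and in resistant 2 it was 1.68 and 1.35, neither called. The resistant 2 value was called lower under quantile normalization (-0.31, limma, adjusted p = 0.0233) and without treated replicate 1 (-0.35, adjusted p = 0.0005). The rise in parental cells was not called under quantile normalization (0.18), nor was its difference from resistant 1 (-0.30). The response was smaller than the parental one by -0.63 ± 0.13 in resistant 1 and -0.83 ± 0.13 in resistant 2 (adjusted p = 0.000672 and 4.64e-05). LAMA5 fell by 0.94 ± 0.35 on the log2 scale in parental cells (adjusted p = 0.0269), from 391, 604 and 234 CPM to 229, 173 and 195. The treated libraries lay below the untreated ones only narrowly, and the call was lost without DMSO replicate 1 (-0.92) or 2 (-0.61) and without treated replicate 2 (-0.85) or 3 (-0.93). It was also lost under quantile normalization (-0.59, adjusted p = 0.163) and with a stricter restoration of the treated table (-0.81, adjusted p = 0.0613).

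The chains of the main epithelial trimer moved apart between populations. LAMC1 went from 1605, 1569 and 1762 CPM to 2001, 1830.4 and 1905 in parental cells, which was not called (0.22 ± 0.11, limma, adjusted p = 0.0944). It went from 2448, 2404 and 2078 to 3217, 3082 and 2689 in resistant 1 (adjusted p = 0.0177) and from 3683, 3543 and 2963 to 2553, 2549 and 2146 in resistant 2 (adjusted p = 0.00447). LAMC1 thus rose in resistant 1 and fell in resistant 2, and the resistant 1 call was lost without DMSO replicate 3 (0.30) or treated replicate 1 or 2 (0.32 and 0.35). LAMB1 rose 1.18-fold in parental cells and fell by 0.41 ± 0.06 on the log2 scale in resistant 2 (adjusted p = 0.00184 and 0.000109). LAMA1 fell by 0.52 ± 0.10 in resistant 2 (adjusted p = 0.00115), from 1013, 1129 and 935 CPM to 663, 815 and 664. LAMB3 fell by 0.60 ± 0.20 in resistant 2 (adjusted p = 0.0465), from 180, 121 and 169 CPM to 125, 79.7 and 105. Its groups overlapped, and the call was lost without DMSO replicate 1 (-0.49) or 3 (-0.54), or treated replicate 2 (-0.43) or 3 (-0.63). Under quantile normalization the falls of LAMA1, LAMB1, LAMB3 and LAMC1 in resistant 2 were not called (-0.27, -0.12, -0.48 and -0.18). The LAMC1 value of parental cells was called under quantile normalization (0.91), with a filter at 50 (0.27) and with the stricter restoration (0.35). LAMB2 was not called in any population (-0.01, -0.10 and -0.08).

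Against the parental response, 2 laminins differed in resistant 1 (LAMA2 and LAMA3, both smaller), beside 44.1% of genes called (17.5% higher and 26.6% lower). In resistant 2, 6 differed, all in the downward direction (LAMA1, LAMA2, LAMA3, LAMA4, LAMB1 and LAMC1), beside 49.8% of genes called (20.3% higher and 29.5% lower). The value for LAMC1 was -0.71 ± 0.16 and for LAMB1 -0.65 ± 0.08 (limma, adjusted p = 0.00122 and 6.88e-06). Both differences use the same parental libraries. The alpha-chain mix of treated parental cells held 14.0 ± 1.16% LAMA3 per length, against 1.58 ± 0.236% without drugs, and 22.2 ± 2.17% LAMA5.

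The spread within groups was not the same for all chains. LAMA5 deviated from its group mean by 0.66 in parental DMSO replicate 2 and by -0.70 in replicate 3 on the log2 scale, LAMB3 by 0.32 and -0.27, and LAMB2 by 0.19 and -0.28. In resistant 1 DMSO replicate 3 LAMA5, LAMB3 and LAMB2 deviated by 0.50, 0.33 and 0.17, and in treated resistant 2 replicate 2 by -0.60, -0.34 and -0.22. These chains were thus high or low in the same libraries. Their longest transcripts are GC-rich, at 66.4% (LAMA5), 60.3% (LAMB2) and 58.9% (LAMB3), against 48.7% for LAMC1. The 10% of genes richest in GC (at least 60.3%, of 9619 genes) moved alike, with a median deviation of 0.26 and -0.38 in the parental DMSO replicates 2 and 3, 0.26 in resistant 1 DMSO replicate 3 and -0.23 in treated resistant 2 replicate 2. The shared deviation was not confined to GC-rich chains. Over the 18 libraries LAMA4, at 46.6% GC, also deviated with LAMA5 (correlation 0.68), while LAMA1 and LAMC1 deviated against LAMA5 (-0.81 and -0.58). With an adjustment for GC content, tried after seeing the data, LAMA5 remained uncalled between resistant 1 and parental cells with DMSO (0.05, limma, adjusted p = 0.752), and its fall in treated parental cells was -1.20 (adjusted p = 0.000439). The responses of LAMA5 in both resistant populations then also differed from the parental one, by 1.01 in each (adjusted p = 0.0263 and 0.0244), which they did not before (0.90 and 0.83).

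**Figure D5:**
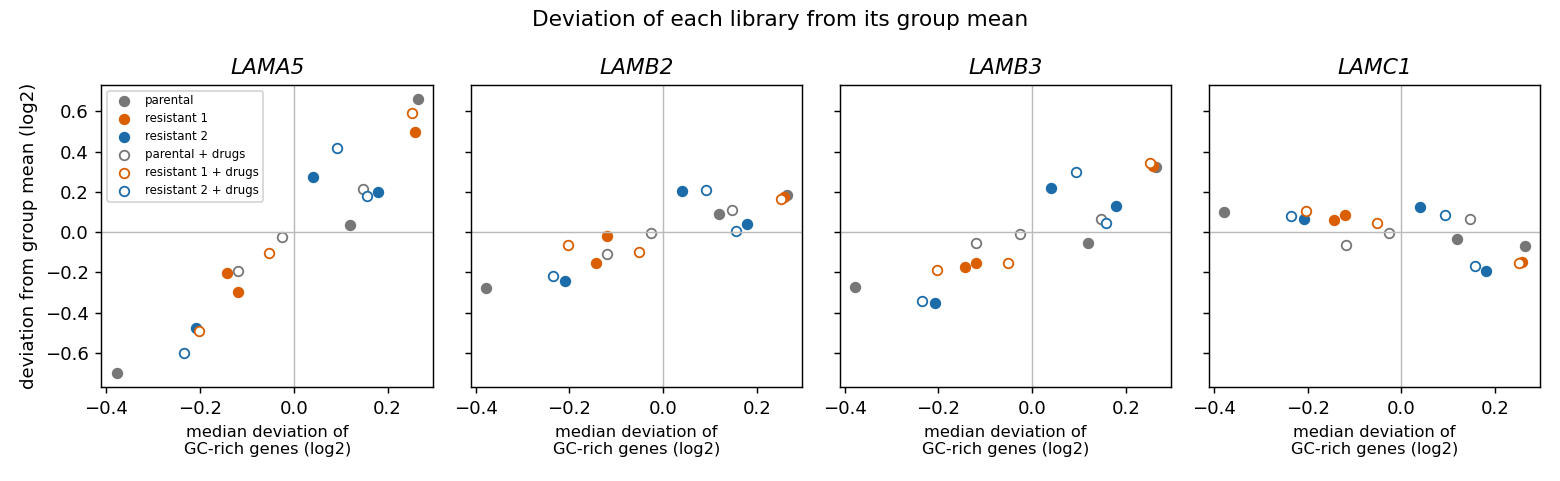
Deviation of each of the 18 libraries from its group mean (log2) for LAMA5, LAMB2, LAMB3 and LAMC1 on the vertical axis, against the median deviation of the 10% of genes richest in GC on the horizontal axis; filled points are DMSO and open points ATRA with decitabine. LAMA5 runs from -0.70 to 0.66 along the GC-rich genes, LAMB2 and LAMB3 follow over a smaller range, and LAMC1 does not rise with them.

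Of the laminin genes outside the named set, LAMC3, a minor gamma chain, was lower in both resistant populations with DMSO (936 ± 157 and 630 ± 111 against 2869 ± 729, SD, n = 3, limma, adjusted p = 4.77e-05 and 3.18e-06). LAMB4 had 10 to 18 reads per parental library, 4 to 12 in resistant 1 and 16 to 34 in resistant 2, and its treated values were not analysed because their decimal points could not be placed.

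Partners of laminin in the basement membrane, its receptors, the enzymes that glycosylate dystroglycan and the proteases that cut laminin were described from lists chosen by their known roles. With DMSO, 13 of 20 basement membrane partners were higher and 4 lower in resistant 1 (median 0.88 on the log2 scale), and 14 were higher and 4 lower in resistant 2 (median 1.59). These and the DMSO counts that follow stand beside 55.9% of all genes called in resistant 1 (29.3% higher and 26.6% lower) and 61.9% in resistant 2 (32.1% higher and 29.8% lower). NID1 (nidogen, which links laminin to collagen IV) went from 153 ± 28.4 normalized counts in parental to 4206 ± 1334 in resistant 2 (limma, adjusted p = 1.26e-08), and the peroxidase PXDN, which crosslinks collagen IV, from 2672 ± 248 to 63532 ± 1212. SPARC, a collagen-binding matrix protein, had 6 reads over the parental libraries and 8291 ± 223 normalized counts in resistant 1. FREM2, a basement membrane protein of developing epithelia, was lower in resistant 2 (1.74 ± 1.16 against 198 ± 12.7).

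Of 14 laminin receptors, 9 were higher and 3 lower in resistant 1 and 11 were higher and none lower in resistant 2 with DMSO (medians 0.77 and 1.47). ITGA3, the integrin subunit that binds the LAMA3 and LAMA5 laminins, stood at 2964 ± 291 normalized counts in parental, 93003 ± 13729.8 in resistant 1 and 84054 ± 12861 in resistant 2 cells (limma, adjusted p = 3.53e-10 and 3.46e-10). ITGA1, an integrin subunit for collagen and laminin, was at 925 ± 158, 19192 ± 1301 and 9396 ± 1045. MCAM, a receptor of LAMA4 laminin, was lower in resistant 1 (3503 ± 106 against 37383 ± 4050.3, adjusted p = 4.1e-10). SDC2, a heparan sulfate proteoglycan of the cell surface, was higher in resistant 2 (19839 ± 3203 against 1091 ± 78.5). With the drugs, 7 of the 14 receptors rose and 4 fell in parental cells, beside 65.0% of genes called (35.9% higher and 29.2% lower). In resistant 1, 7 rose and 3 fell, beside 28.8% of genes called, and in resistant 2, 2 rose and 6 fell, beside 19.1%.

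Of 13 genes for dystroglycan glycosylation, 5 were higher and 5 lower in resistant 1 (median -0.11) and 6 higher and 4 lower in resistant 2 (median 0.26), beside the shares of all genes given above. LARGE2, a glycosyltransferase that extends the laminin-binding glycan, was lower in both resistant populations (9.56 ± 4.33 and 9.48 ± 3.54 normalized counts against 118 ± 36.6 in parental cells, limma, adjusted p = 1.3e-05 and 9.66e-06). Of 9 tested laminin-cleaving proteases and activators, 6 were higher and 1 lower in each resistant population. MMP2, gelatinase A, totalled 11 parental reads and reached 998 ± 40.8 normalized counts in resistant 1 and 110687 ± 33354 in resistant 2. MMP3 and MMP12 had no read in parental cells. In the response of parental cells all 7 proteases tested rose (median 1.41), beside 35.9% of all genes called higher, among them the urokinase PLAU from 31.2 to 84.4 CPM on average (adjusted p = 2.3e-09).

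The genes whose pattern over the 18 libraries was most like that of each laminin were taken by the smallest root mean square difference of centred log2(CPM + 1) values. For LAMA4 they were TIMP3 (0.59), VGLL3 (0.84) and TLR4 (1.01), against a standard deviation of LAMA4 itself of 3.25. TIMP3, an inhibitor of matrix metalloproteinases, stood at 15.3 ± 13.3, 1866 ± 995 and 32762 ± 9190.3 normalized counts in the DMSO groups. For LAMA3 they were SDK2 (0.30), BMP2 (0.36) and YPEL2 (0.39), for LAMA1 PAPSS2 (0.13), ARHGAP29 (0.13) and ZNF83 (0.15), and for LAMA2 BANK1 (0.10), C6orf141 (0.14) and SOX13 (0.14). LAMA5 was nearest to TCEA2 (0.33), HPCAL1 (0.34) and BRSK2 (0.35). LAMB1 was nearest to SSBP2 (0.09), EXTL3 (0.10) and RNF121 (0.11), and LAMB2 to C1S (0.23), PRKCE (0.25) and XDH (0.26). LAMB3 was nearest to SERF2 (0.25), MAN2C1 (0.27) and SULT1A1 (0.28), and LAMC1 to DNMBP (0.17), EIF2AK3 (0.17) and DMGDH (0.18). The libraries of a group share their population and treatment, so this is a description of 6 groups more than of 18 separate points.

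Where another gene's exons lie on the same bases, reads could have been assigned to either or left uncounted, since the strand setting of the counting is not given in the sources used here. For LAMA1 the antisense gene AP002409.1 covers 1641 of 15872 exon bases (10.3%), and for the other laminins no overlapping gene covers more than 2.71%.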

How the data were processed

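RNA of NCI-H460 cells was made into stranded mRNA libraries with the TruSeq kit, per the labels' protocols. Per the submitters' processing notes, the tools were FastQC, MultiQC, STAR, featureCounts and DESeq2, with genome build GRCh38 (hg38); neither versions nor a strand setting were found there. The authors deposited 1 table per treatment. In the deposited DMSO table the values are a signal, read counts divided by DESeq2 size factors, from which whole reads were recovered within 0.01 of a read (100% of values). The deposited ATRA and decitabine table holds values of other form, having lost their decimal points. Each gene's 9 values were restored to whole reads by likelihood, using the spread of the DMSO table and, in part, the DMSO level of the same population, and kept at a posterior of at least 99% (81.7% of 25179 expressed genes). On the DMSO table with its points removed, 12 of 17406 resolved genes came out wrong. Without the level of the other table it was 58 of 17462. The treated levels used in the first check had themselves been restored in part from the DMSO levels. The DMSO table also set the spread in both checks, so neither figure is an independent error rate.

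Populations were compared inside 1 table at a time, using limma 3.58.1 (trend, R 4.3.3) on log2(normalized count + 1), for genes reaching 10 normalized counts in 3 or more of the 9 libraries. Responses and their differences were tested with limma on log2(CPM + 1) of reads scaled together by TMM (edgeR 4.0.16). P-values were adjusted by Benjamini-Hochberg over all genes, and called under 0.05. A difference on a log2(value + 1) scale understates the change of low genes. Alternatives included edgeR and DESeq2 1.42.0 on the reads. Genes were named and placed by GENCODE 29 (57447 of 58051 identifiers), and levels between genes were compared per kilobase of exon union. Promoter windows came from RefSeq (GRCh38.p14). Counting intervals (95%, exact) cover counting error only. When counts were simulated for resistant 1 and parental DMSO libraries, some of the 21643 genes were given known changes. Changes of 1.5, 2 and 4 times were recovered for 22.4%, 55.2% and 92.4% of the genes given them, and 8.13% of calls were false. These percentages rest on the changed genes alone, and recovery at the share of genes called in the data (55.9%) was not tested. No pair of libraries inside a group matched to within counting error (chi-square 8.41 to 205 for each degree of freedom). The labels do not say that a replicate number links libraries. Same-numbered DMSO and treated libraries deviated together in resistant 1 (correlations 0.39 to 0.87) and resistant 2 (0.75 to 0.86) but not in every pair of parental cells (-0.26 to 0.46). Between populations, 3 of 9 pairs with DMSO and 4 of 9 with the drugs had a correlation over 0.1. The data thus gave a hint of pairs only inside the resistant populations. The block inside each population nevertheless also paired the parental libraries by number, where such pairs were not shown. The named genes were the 9 laminins, other laminin chains, up to 3 called genes per list with the largest change and a mean of at least 10, and the 3 protein-coding genes most like each laminin. Some genes that this rule names are not reported here. The members and gene lists were chosen with earlier results of these data known.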

Additional observations from a re-analysis of the deposited data

Results flagged for a closer look

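The response to ATRA and decitabine differed between populations for 6 laminins by the test of the difference itself (limma, Benjamini-Hochberg, n = 3 per group, log2(CPM + 1) scale). For resistant 1 minus parental, LAMA2 differed by -0.63 (adjusted p = 0.000672) and LAMA3 by -1.69 (adjusted p = 4.07e-08). For resistant 2 minus parental, LAMA1 differed by -0.42 (adjusted p = 0.0194), LAMA2 by -0.83 (adjusted p = 4.64e-05), LAMA3 by -2.58 (adjusted p = 1.72e-10), LAMA4 by -1.42 (adjusted p = 8.9e-06), LAMB1 by -0.65 (adjusted p = 6.88e-06) and LAMC1 by -0.71 (adjusted p = 0.00122). The LAMA1 value was not called without resistant 2 DMSO replicate 2 (-0.35) or with no filter on low values (-0.33).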

How the results depend on the processing

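Leaving out single libraries, other filters, pseudocounts, scalings and tools kept most calls: of 1793 values recomputed for single laminins, 1655 kept direction and side of the threshold, 38 lost the call, 37 gained one and 63 changed sign. The cause of each change was not tested. The count of laminins called in treated resistant 2 against parental went from 8 to 5 under quantile normalization. The count for the response of resistant 2 cells went from 5 to 3 with no filter, with quantile normalization and with the stricter restoration of the treated table (where LAMA3 and LAMA4 drop out and 7 laminins remain), and was 3 to 5 leaving out each library. With the stricter restoration the count was 3 for the response of parental cells (LAMC1 gained among them) and 1 for resistant 1 minus parental. Quantile normalization moved the median of all genes from 0.01 to -0.12 for resistant 1 and from 0.02 to -0.11 for resistant 2 against parental with DMSO.

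Signs changed for values that had not been called, apart from LAMA1 (-0.14) and LAMC1 (-0.16) in treated resistant 2 under quantile normalization. In resistant 1 against parental with DMSO, LAMB3 became 0.021 with edgeR, 0.017 with TMM, 0.038 with quantile normalization and -0.17 to 0.14 without single libraries, and LAMA5 -0.013 with DESeq2 and -0.31 to 0.35 without single libraries. In treated resistant 2 LAMA2 became -0.010 with the GC adjustment, added after seeing the data, and -0.19 to 0.26 without single libraries. For the response of parental cells, LAMB2 was 0.037 with a filter at 50, 0.21 with quantile normalization, 0.12 with stricter restoration and -0.15 to 0.080 without single libraries. LAMB3 was 0.063 with quantile normalization, 0.077 with stricter restoration and -0.19 to 0.11, and LAMA1 0.43 with quantile normalization (called, limma adjusted p = 0.00181) and 0.027 with stricter restoration. For resistant 1, LAMA2 was 0.0081 with DESeq2, 0.033 with the GC adjustment (here and below also with the block inside populations), 0.017 with stricter restoration and -0.036 to 0.018 without single libraries. LAMA5 was 0.14 with quantile normalization, 0.031 with stricter restoration and -0.34 to 0.20, LAMA1 0.11 and LAMB2 0.089 with quantile normalization. For resistant 2, LAMA5 was 0.13 and LAMB2 0.18 with quantile normalization, and -0.35 to 0.19 and -0.20 to 0.029 without single libraries. For resistant 1 minus parental, LAMA4 was 0.025 with no filter, 0.033 with the GC adjustment, 0.015 with DESeq2 size factors, 0.40 with quantile normalization and -0.17 to 0.14 without single libraries. LAMB2 was 0.026 with the GC adjustment and -0.18 to 0.048, and LAMC1 -0.27 with quantile normalization. For resistant 2 minus parental, LAMB2 was 0.022 with no filter, 0.11 with the GC adjustment and -0.19 to 0.073.

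With the replicate number as a block, the counts of laminins called were 6, 9 and 9 with DMSO, 8, 8 and 9 with the drugs, 5, 3 and 5 for the responses and 2 and 6 for their differences, the same counts as without it. With the block inside each population, added after seeing the data, the counts were 6, 5 and 6 for the responses and 3 and 8 for their differences. With the GC adjustment as well they were 9, 6, 6, 4 and 8. Beyond the calls given in the report, that block added LAMC1 in the response of parental cells (0.22), LAMA5 in resistant 1 minus parental (0.90), and LAMA5 (0.83) and LAMB3 (-0.55) in resistant 2 minus parental. It changed no other call. The calls that involve parental cells rest on pairing the parental libraries by number, which their correlations (-0.26 to 0.46) did not bear out in every pair. Depth limited LAMA4 in untreated parental cells and LAMB4.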
